A study of Mus musculus with 9 samples.

Results

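The striated muscle miRNAs of mouse back skin were mmu-miR-1a-3p, its opposite-strand row mmu-miR-1b-5p, mmu-miR-133a-3p, mmu-miR-133a-5p, mmu-miR-133b-3p, mmu-miR-206-3p and mmu-miR-499-5p, written below without the prefix for mouse. They were chosen by name, as known muscle miRNAs, with earlier results of these data known. All 7 were found among the 1129 rows of the table of small RNA read counts. Adult female C57BL/6 mice, an inbred laboratory strain, were 6 months old, and the back was wounded under anesthesia with a punch of 8 mm diameter. The 9 libraries of whole skin form 3 groups of 3: non-diabetic skin taken out by the punch (day 0 skin), non-diabetic skin from the margin of the wound on day 7 (the wound edge), and diabetic skin, from a mouse model. For the diabetic libraries the sample titles carry T7, the table's columns T0 and the treatment text a removal at wounding, so the day of these libraries is not known, and a difference of day and the diabetic model cannot be told apart. The labels do not say how diabetes was induced or which samples come from 1 mouse, so each p-value below rests on the variation among these 9 libraries, which may be technical.

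MicroRNAs are short RNAs that bind messenger RNAs through their seed, bases 2 to 8, and lower the output of those messages. miR-1 and miR-133 are cut from shared primary transcripts that muscle transcription factors switch on in skeletal and heart muscle. In cultured mouse myoblasts miR-1 favours differentiation and miR-133 favours proliferation. miR-206 is made in skeletal muscle, where it is known to be raised in regenerating mouse fibres, and it has the same seed as miR-1. Mouse back skin carries the panniculus carnosus, a thin sheet of skeletal muscle under the dermis, and tiny smooth muscles at the hairs. In bulk skin, fewer muscle fibres and less of a miRNA per fibre cannot be told apart.

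Sequences were matched by name to the RefSeq miRNA table (build GRCm38.p6), which gave 3 of the 7 members. They are shown because the seed sets the family of each miRNA. Each is written 5′ to 3′ with the seed in capitals:
miR-206-3p: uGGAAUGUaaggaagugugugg
miR-133b-3p: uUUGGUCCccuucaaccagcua
miR-499-5p: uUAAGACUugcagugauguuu
miR-206-3p lies at chr1:20679055-20679076, miR-133b-3p at chr1:20682834-20682855 and miR-499-5p at chr2:155622893-155622913, all on the plus strand. The 3 seeds differ, so the 3 miRNAs belong to 3 seed families. miR-1a-3p and miR-1b-5p are annotated on opposite strands of 1 locus. miR-133a-3p and miR-133b-3p are near-identical and share a seed, so the counting may have split their reads. miR-499 lies in an intron of Myh7b, a myosin gene of slow and heart muscle.

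The hairpins of miR-206 and miR-133b are shown because the ratio of their mature forms is compared further on. Both lie within Lincmd1, a long noncoding RNA of mouse muscle differentiation, with 3686 bases between them. The 3p arm counted here is in capitals:
Mir206: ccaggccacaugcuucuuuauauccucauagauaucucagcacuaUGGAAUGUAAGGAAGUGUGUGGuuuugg
Mir133b: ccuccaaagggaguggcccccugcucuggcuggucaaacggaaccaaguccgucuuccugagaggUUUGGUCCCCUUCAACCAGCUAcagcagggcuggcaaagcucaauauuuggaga
The hairpin Mir206 is at chr1:20679010-20679082 and Mir133b at chr1:20682769-20682887. Their other arms were almost absent. miR-206-5p had 5 counts and miR-133b-5p had 7 counts summed over the 9 libraries, against 106641 counts of miR-206-3p and 8050 counts of miR-133b-3p.

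The RefSeq window around the start of Lincmd1, 250 bases before to 50 after (chr1:20669632-20669931, plus strand), is shown because miR-206 and miR-133b lie in that gene. The letters CAGCTG, a form of the E-box that MyoD-type factors can bind, are in capitals:
Lincmd1: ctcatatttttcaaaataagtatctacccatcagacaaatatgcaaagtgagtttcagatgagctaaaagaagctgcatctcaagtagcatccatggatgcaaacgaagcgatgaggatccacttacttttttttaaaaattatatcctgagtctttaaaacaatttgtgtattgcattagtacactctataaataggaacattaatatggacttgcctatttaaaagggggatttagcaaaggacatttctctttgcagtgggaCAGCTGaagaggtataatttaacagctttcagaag
CAGCTG reads the same on both strands. It begins at base 266 of the window and was also found in 16.3% of all 32851 windows of this length, so the match is a description and not a site.

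Library totals lay between 2537167 and 5453539 counts, and between 667 and 805 rows had at least 1 count. Levels are given as CPM, counts per 1000000 of a library total scaled by TMM, a method that sets a typical miRNA to no change. Fold changes are therefore relative to the other miRNAs. All 7 members passed the filter on low counts, which kept 447 rows. Mature miRNAs differ little in length, so no length term was used, and the ligation of adapters may favour some sequences over others.

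miR-1a-3p was among the most abundant rows of the table, behind miR-21a-5p and miR-143-3p. It reached 50042, 56362 and 39345 CPM in day 0 skin, 45547, 68098 and 92815 CPM at the wound edge, and 26400, 69019 and 121226 CPM in diabetic skin, for replicates 1, 2 and 3. The 3 ranges overlapped. Diabetic replicate 3 was the highest of the 9 libraries, and diabetic replicate 1 the lowest in CPM, while in TPM, the count per 1000000 counts of the unscaled library, day 7 replicate 1 was lowest. Highest and lowest library differed 1.43-fold in day 0 skin, 2.04-fold at the wound edge and 4.59-fold in diabetic skin, and in TPM 1.52-fold, 2.34-fold and 3.39-fold.

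miR-1b-5p followed miR-1a-3p in every library, with 99.86% to 99.94% of its count. Whether these reads were assigned to both strands is not given in the sources used here, and the rows cannot be told apart. miR-1b-5p was therefore left out of sums. The opposite arms differ between the gene copies of miR-1a: miR-1a-1-5p, of the copy on chromosome 2, had 77 counts over the 9 libraries and at least 1 in each. miR-1a-2-5p had 6 counts and miR-1b-3p had the same 6. These opposite-arm rows were named after their values were seen.

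miR-206-3p, with the same seed as miR-1a-3p, had 1778, 2436 and 2436 CPM in day 0 skin. It had 3182, 3432 and 4681 CPM at the wound edge, and 2081, 3388 and 4947 CPM in diabetic skin. In CPM all 3 day 7 libraries lay above all 3 day 0 libraries, beside 30.4% of all miRNAs tested with ranges apart. The diabetic libraries overlapped both groups. The separation at day 7 depended on the scaling. In TPM miR-206-3p stood at 2237, 2494 and 2563 in day 0 skin against 2265, 2607 and 3833 at the wound edge, where the ranges overlapped. In diabetic skin it stood at 2854, 4055 and 5015, above all day 0 libraries, beside 14.1% of all miRNAs tested with TPM ranges apart.

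miR-133a-3p had 2549, 3578 and 2357 CPM in day 0 skin, 1554, 1421 and 2978 CPM at the wound edge, and 1670, 3851 and 5928 CPM in diabetic skin. Day 7 replicates 1 and 2 lay below every day 0 library, and day 7 replicate 3 lay within the day 0 range. In TPM all 3 day 7 libraries lay below the day 0 libraries, at 1106, 1079 and 2438 against 3206, 3663 and 2480. Of all miRNAs tested 49.9% had TPM ranges apart between these 2 groups. Its opposite arm miR-133a-5p had 39.2, 51.0 and 25.7 CPM in day 0 skin, 29.2, 44.8 and 52.5 CPM at the wound edge, and 21.9, 49.5 and 65.2 CPM in diabetic skin. Those ranges overlapped in all 3 comparisons.

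miR-133b-3p, made with miR-206, had 145, 257 and 191 CPM in day 0 skin, 127, 98.3 and 256 CPM at the wound edge, and 133, 318 and 522 CPM in diabetic skin. As for miR-133a-3p, day 7 replicates 1 and 2 were the lowest of the 9 libraries.

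miR-499-5p, the slow-fibre miRNA, was near the limit of detection. Its counts were 4, 66 and 1 in day 0 skin, 10, 13 and 6 at the wound edge, and 12, 61 and 6 in diabetic skin. Replicate 2 stood far above the others in day 0 skin and in diabetic skin. The 1 count of day 0 replicate 3 stands for a TPM of 0.356, with an exact 95% binomial interval of 0.00902 to 1.98 that covers counting error only. miR-208b-3p, another miRNA of a slow and heart myosin gene, had 2 counts over all 9 libraries.

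**Figure D1:**
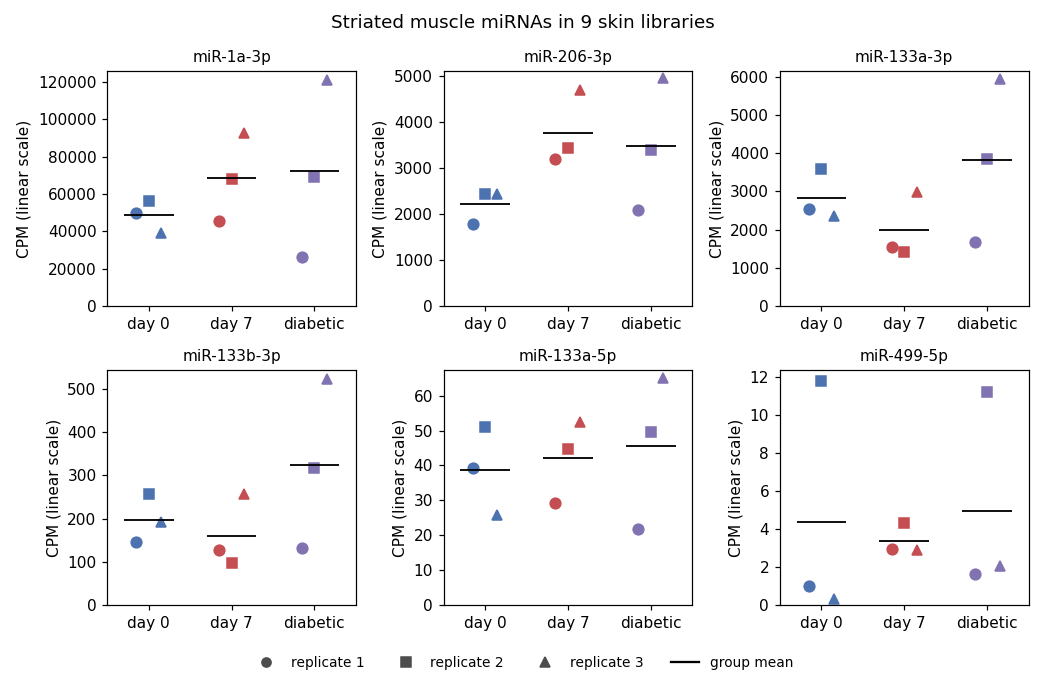
CPM (linear axis) of 6 striated muscle miRNAs in each of the 9 libraries, by group, with marker shapes for the replicate number and a bar for the group mean. For miR-206-3p all day 7 libraries (3182 to 4681 CPM) lie above all day 0 libraries (1778 to 2436 CPM), which they do not in TPM, and for miR-1a-3p the diabetic libraries spread from 26400 to 121226 CPM.

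The diabetic libraries were ordered alike by the muscle miRNAs: replicate 1 was lowest and replicate 3 highest for 5 of the 6 rows without miR-1b-5p, all but miR-499-5p. At the wound edge replicate 3 was highest for 5 of the 6 rows, again all but miR-499-5p, and both counts were the same in TPM. In day 0 skin replicate 2 was highest for all 6 rows in CPM but for 4 of the 6 in TPM, where miR-1a-3p was highest in replicate 1 and miR-206-3p in replicate 3. Together the 6 rows took 7.32%, 6.81% and 4.87% of counts in day 0 skin, 3.71%, 5.85% and 8.93% at the wound edge, and 4.31%, 9.999% and 15.3% in diabetic skin. Within that sum miR-1a-3p made up 87.1% to 93.2%.

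Mean shares were 6.33% ± 1.29 in day 0 skin, 6.16% ± 2.62 at the wound edge and 9.88% ± 5.51 in diabetic skin (SD, n = 3 each). The exact two-sided permutation p was 1 between the non-diabetic groups and 0.4 for diabetic skin against each of them, and 3 against 3 cannot give less than 0.1. Diabetic skin had the larger share in 3 of 3 same-numbered pairs with the wound edge (exact sign-flip p = 0.25, the smallest 3 pairs allow). Without diabetic replicate 3 its difference fell from 3.55 to 0.82 percentage points against day 0 skin and from 3.72 to 0.99 against the wound edge. With miR-21a-5p, the most abundant row, taken out of the total the mean shares became 8.82%, 12.6% and 11.9%, which turns the sign of the difference between day 7 and day 0 and of that between the diabetic libraries and day 7.

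The first comparison asked how the wound edge differs from skin removed at wounding. Of the 7 members 0 passed the edgeR test at an adjusted p under 0.05, 1 had an unadjusted p under 0.05, DESeq2 called 0 and limma called 1. That edgeR fit did not pair the libraries by replicate number, and with the number as a block edgeR called 1. Over all 447 miRNAs tested edgeR called 57 (12.8%, 8.05% higher and 4.70% lower), or 74 with the block. DESeq2 called 70 of the 447 and limma 139. Without the 3 libraries numbered 2, a setting chosen after seeing the data, the edgeR count over all miRNAs fell from 57 to 1. It was 18 without those numbered 1 and 60 without those numbered 3. miR-206-3p went from a mean of 2217 ± 380 to 3765 ± 803 CPM (mean ± SD, n = 3 per group), which edgeR put at 0.76 ± 0.28 (log2 fold change ± SE, adjusted p = 0.109). It was the 1 member whose CPM ranges did not overlap, where 30.4% of all miRNAs tested had none. In TPM that member was miR-133a-3p, where 49.9% of all miRNAs tested had ranges apart. With total-count scaling the log2 fold change of miR-206-3p was 0.25.

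The call of miR-206-3p depended on the fit. It passed with the replicate number as a block (0.76, adjusted p = 0.0164, edgeR), in the fit of the day 0 and day 7 libraries alone (0.73, adjusted p = 0.0300), without diabetic replicate 1 (0.75, adjusted p = 0.0409) and without diabetic replicate 3 (0.71, adjusted p = 0.0456). It also passed without the low-count filter (0.65, adjusted p = 0.0305) and with totals that leave out miR-21a-5p (0.77, adjusted p = 0.0407). In all of these fits its SE was smaller, at 0.18 to 0.21, than the 0.28 of the main fit.

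miR-1a-3p stood at 0.50 ± 0.45 on that scale (adjusted p = 0.485, edgeR), which was -0.017 with total-count scaling and -0.0034 without the 3 libraries numbered 3. The miR-133 guide strands had values on the other side of 0: -0.51 ± 0.41 for miR-133a-3p (adjusted p = 0.446) and -0.31 ± 0.47 for miR-133b-3p (adjusted p = 0.697), which was 0.20 without the 3 libraries numbered 2. miR-133a-3p passed without the low-count filter (-0.63, adjusted p = 0.0390, edgeR), where its SE was 0.21 against 0.41 in the main fit. It also passed in limma on log2(TPM + 1) (-1.11, adjusted p = 0.0450). In that limma fit the median over all miRNAs tested was -0.42, and 122 of its 139 calls were lower. miR-133a-5p stood at 0.11 ± 0.40, and at -0.41 with total-count and -0.07 with upper-quartile scaling. miR-499-5p stood at -0.48 ± 1.03, and without day 0 replicate 2 at 2.15. The median of the 6 rows was -0.10, beside 0.08 over all miRNAs tested.

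**Figure D2:**
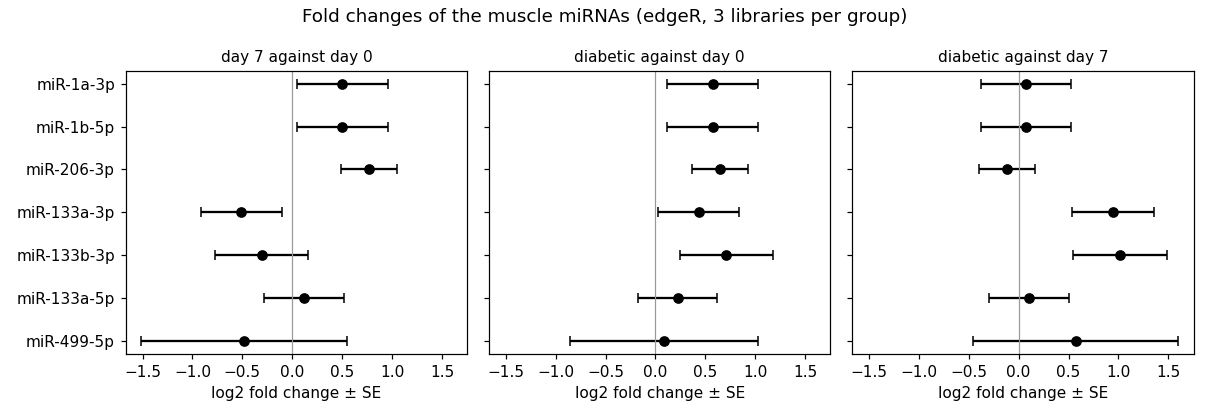
Log2 fold changes of the 7 rows (horizontal axis, points) with their standard errors (bars) in the 3 comparisons, from edgeR with 3 libraries per group. At the wound edge against day 0 skin miR-206-3p stands at 0.76 and miR-133a-3p at -0.51. In diabetic skin against day 0 all 7 values are above 0, where miR-1b-5p repeats miR-1a-3p and the median over all miRNAs tested is 0.04. No row passed the test.

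The second comparison set the diabetic libraries beside day 0. Of the 7 members 0 passed (edgeR), 1 had an unadjusted p under 0.05, and DESeq2 and limma called 0 each. Of all 447 miRNAs tested 0% were called, with 40 at an unadjusted p under 0.05. All 7 log2 fold changes were above 0, 1 of them that of miR-1b-5p, which repeats miR-1a-3p. They ran from 0.09 ± 0.94 for miR-499-5p to 0.71 ± 0.47 for miR-133b-3p. The median of the 6 rows was 0.50, beside 0.04 over all miRNAs. The share of all miRNAs with a value above 0 was not counted. miR-206-3p stood at 0.65 ± 0.28 (adjusted p = 0.546), miR-1a-3p at 0.57 ± 0.45, miR-133a-3p at 0.43 ± 0.41 and miR-133a-5p at 0.22 ± 0.40. The CPM ranges overlapped for all 7 members, where 13.9% of all miRNAs tested had ranges apart, and in TPM those of miR-206-3p were apart, beside 14.1% of all. Without diabetic replicate 3 miR-1a-3p stood at -0.06, miR-133a-3p at -0.06, miR-133a-5p at -0.15, miR-133b-3p at 0.16 and miR-206-3p at 0.28. miR-499-5p was higher without it, at 0.37, but stood at -1.36 without diabetic replicate 2 and at 2.74 without day 0 replicate 2. Without all 3 libraries numbered 3, a setting chosen after seeing the data, miR-1a-3p stood at -0.20, miR-133a-3p at -0.19, miR-133a-5p at -0.38 and miR-499-5p at -0.12.

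The third comparison set the diabetic libraries beside the wound edge. It uses the same day 7 libraries as the first comparison. Of the 7 members 0 passed (edgeR), 1 had an unadjusted p under 0.05, DESeq2 called 1 and limma called 2. Over all 447 miRNAs tested edgeR called 89 (19.9%, 7.83% higher and 12.1% lower), DESeq2 102 and limma 194. Without the 3 libraries numbered 2 the edgeR count fell from 89 to 5. It was 56 without those numbered 1 and 86 without those numbered 3. The largest values were those of miR-133b-3p, from 160 ± 84.1 CPM at the wound edge to 324 ± 195 CPM (log2 fold change 1.02 ± 0.47, adjusted p = 0.149, edgeR), and of miR-133a-3p, from 1984 ± 863 to 3816 ± 2129 CPM (0.94 ± 0.41, adjusted p = 0.130). The other members were closer to 0, at 0.07 ± 0.45 for miR-1a-3p, 0.11 ± 0.40 for miR-133a-5p and -0.12 ± 0.28 for miR-206-3p, the last of which was 0.45 with total-count scaling. miR-499-5p stood at 0.57 ± 1.03. The median of the 6 rows was 0.34, beside -0.02 over all miRNAs. All 7 ranges overlapped in CPM and in TPM, where 38.3% and 52.1% of all miRNAs tested had ranges apart.

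Both miR-133 guide strands passed in some other fits of the third comparison. miR-133a-3p passed without diabetic replicate 1 (1.31, adjusted p = 0.0182, edgeR) and without day 7 replicate 3 (1.39, adjusted p = 0.0457), as did miR-133b-3p (1.40, adjusted p = 0.0329, and 1.56, adjusted p = 0.0475). With total-count scaling their values were 1.48 and 1.55 (adjusted p = 0.00965 and 0.0132, edgeR), but there the median of all miRNAs was 0.61. DESeq2 called miR-133a-3p (0.96, adjusted p = 0.0335).

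Ratios between members within a library do not depend on library scaling. The primary transcripts that carry miR-1a also carry miR-133a. The ratio of miR-1a-3p to miR-133a-3p counts was 19.6, 15.8 and 16.7 in day 0 skin, 29.3, 47.9 and 31.2 at the wound edge, and 15.8, 17.9 and 20.4 in diabetic skin. Each day 7 library lay above all 6 others. How often ratios of other miRNA pairs set day 7 apart was not counted, so this separation may be common. Among single miRNAs, ranges of day 7 and day 0 were apart for 30.4% in CPM and 49.9% in TPM. The log2 ratio was 5.14 ± 0.39 at the wound edge, 4.11 ± 0.16 in day 0 skin and 4.17 ± 0.19 in diabetic skin (mean ± SD, n = 3 each), a 2.04-fold difference between day 7 and day 0.

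miR-206-3p and miR-133b-3p, whose hairpins are printed above, gave the same picture. Their ratio was 12.2, 9.48 and 12.7 in day 0 skin, 25.1, 34.9 and 18.3 at the wound edge, and 15.6, 10.7 and 9.47 in diabetic skin. Each day 7 library again lay above all 6 others, with a mean 2.21-fold above day 0.

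The arms of miR-133a itself also differed in ratio. miR-133a-3p outnumbered miR-133a-5p 65.0, 70.1 and 91.6 times in day 0 skin, 53.3, 31.7 and 56.7 times at the wound edge, and 76.2, 77.7 and 91.0 times in diabetic skin. Each day 7 library lay below all 6 others. The mean log2 ratio was lower at the wound edge by 0.71 than in day 0 skin, a value that rests on 76 to 285 counts of miR-133a-5p a library.

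**Figure D3:**
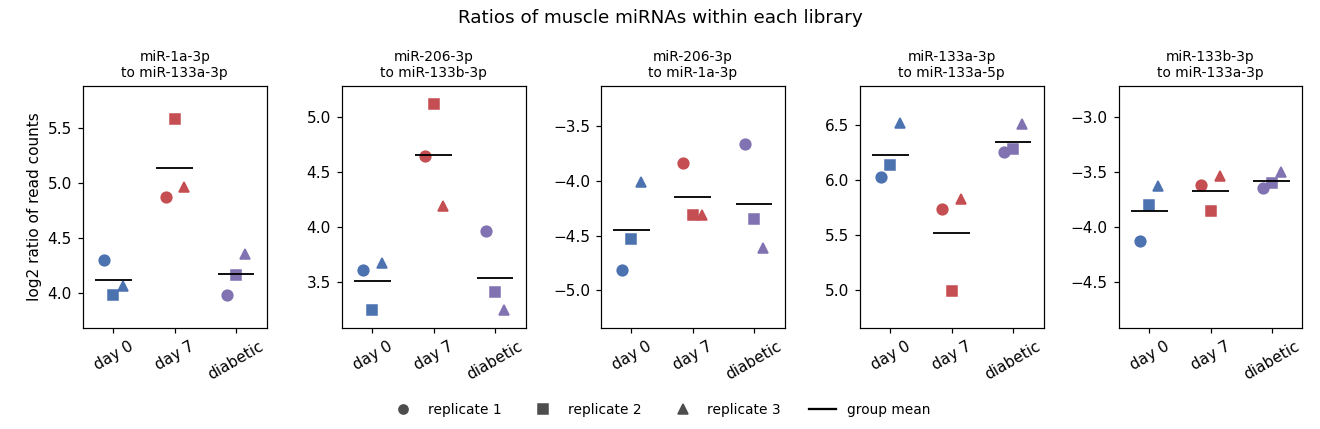
Log2 ratio of read counts (vertical axis, each panel spanning the same number of log2 units) for 5 pairs of muscle miRNAs in each library, by group, with marker shapes for the replicate number and a bar for the group mean. In the panels of miR-1a-3p to miR-133a-3p, miR-206-3p to miR-133b-3p and miR-133a-3p to miR-133a-5p the 3 day 7 libraries lie apart from the 6 others.

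In each of these 3 ratios an exact two-sided permutation test gave p = 0.1 for the wound edge against day 0 skin and again for diabetic skin against the wound edge, the smallest that 3 against 3 can give. Adjusted over the 15 tests of 5 ratios in 3 comparisons (Benjamini-Hochberg) it was 0.25, so no ratio passed. As the ranges of these ratios are apart, leaving libraries out cannot turn their direction and changes only the size. Without each replicate in turn, the difference in log2 ratio between day 7 and day 0 ran from 0.81 to 1.16 for miR-1a-3p to miR-133a-3p. It ran from 0.74 to 1.25 where all 3 libraries of 1 replicate number were left out. The 3 ratios are not independent, since a miR-133 guide strand enters each, and both comparisons use the same day 7 libraries.

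The other ratios did not set day 7 apart. The ratio of miR-133b-3p to miR-133a-3p lay between 0.0570 and 0.0881 in all libraries, with differences in log2 ratio of 0.09 to 0.27 between groups (exact two-sided permutation p from 0.2 to 0.5). The ratio of miR-206-3p to miR-1a-3p lay between 0.0355 and 0.0788, and its exact p ran from 0.4 to 0.8. For the diabetic libraries against day 0 all 5 ratios overlapped.

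Other rows tied to striated muscle were followed as a list of 17, of which 11 were in the table and 6 passed the low-count filter. Of these 6, 0 passed in any of the 3 comparisons (edgeR), with median log2 fold changes of 0.39 in the first, -0.084 in the second and -0.52 in the third. The most abundant was miR-378a-3p, from an intron of Ppargc1b and also made in fat, at 11073 ± 2173 CPM in day 0 skin, 11672 ± 2137 at the wound edge and 11636 ± 3669 in diabetic skin (SD, n = 3 each). miR-486a-5p and its opposite-strand row miR-486a-3p, made in muscle and in red cells, had log2 fold changes of 0.60 ± 0.24 and 0.59 ± 0.24 at the wound edge against day 0 skin (adjusted p = 0.131 and 0.143, edgeR). Of 9 tested miRNAs linked to myogenesis but also found in other cells, 0 passed in any comparison (edgeR). In that list miR-489-3p, a miRNA of quiescent muscle stem cells in mice, had 11 counts over the 9 libraries and was named after its values were seen.

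The rows most like the summed muscle level over the 9 libraries were miR-29b-3p, miR-378c, miR-29c-5p, miR-378b and miR-378a-3p. Likeness was the root mean square distance between log2 CPM values, each centred on its own mean, over 303 rows with a mean of at least 10 CPM. Distances of these 5 were 0.33, 0.37, 0.39, 0.40 and 0.43 log2 units, where a row of constant level would be at 0.60 and the median row was at 0.69. Among the members miR-133a-5p was at 0.22, miR-206-3p at 0.33, miR-133a-3p at 0.50 and miR-133b-3p at 0.54. miR-499-5p was at 1.16, farther than a row of constant level. miR-378c ran from 986 to 2434 CPM over the 9 libraries.

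Markers of other cell types moved between the same libraries. Smooth muscle and pericyte miRNAs, 4 of 4 tested, had 0 calls in each comparison (edgeR), and their summed level was 72216 to 106700 CPM in day 0 skin, 52463 to 78238 CPM at the wound edge and 66985 to 119389 CPM in diabetic skin. miR-143-3p, the smooth muscle miRNA that makes up most of it, stood at 66197, 78762 and 118182 CPM in diabetic replicates 1, 2 and 3, the same order as the muscle miRNAs there. The endothelial miR-126a-3p did so too, at 4952, 6230 and 9061 CPM. The epidermal miR-203-3p had the reverse order, at 66282, 56560 and 42261 CPM, but the epidermal miR-205-5p, at 7724, 6647 and 7448 CPM, did not. Over the lists, the order of the muscle miRNAs was found in 3 of 4 smooth muscle and 2 of 2 endothelial rows. Of 7 epidermal rows 1 had it. Its reverse was found in 1, 0 and 3 of them. The order was also found in 7 of 11 other striated muscle rows, 3 of 10 myogenesis-linked rows and 3 of 4 adipocyte rows. The reverse was found in 0, 2 and 0 of those. Of 5 myeloid and lymphoid rows 2 had the order and 1 the reverse. Of 3 red-cell rows 0 had the order and 2 the reverse. The share over all miRNAs was not counted.

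At the wound edge against day 0 skin, 4 of 5 myeloid and lymphoid miRNAs were called higher. Among them were miR-142a-5p (1.02 ± 0.18), miR-142a-3p (1.05 ± 0.19) and miR-223-3p (1.68 ± 0.23, adjusted p = 0.00332, edgeR). Of 3 red-cell miRNAs 2 were called higher, of 7 epidermal miRNAs 3 lower, and of 4 adipocyte miRNAs 1 higher and 1 lower. Over all miRNAs tested 8.05% were called higher and 4.70% lower. The summed myeloid and lymphoid level was 822 to 1056 CPM in day 0 skin, 1648 to 2178 CPM at the wound edge and 704 to 891 CPM in diabetic skin. The summed epidermal level was 67999 to 81578 CPM in day 0 skin, 57161 to 61576 CPM at the wound edge and 62174 to 88886 CPM in diabetic skin, and the red-cell level was 493 to 1041, 1254 to 2367 and 395 to 780 CPM. No defining marker of these lists was at 0 in all libraries. The part of these cell types in the muscle levels and ratios was not tested.

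**Figure D4:**
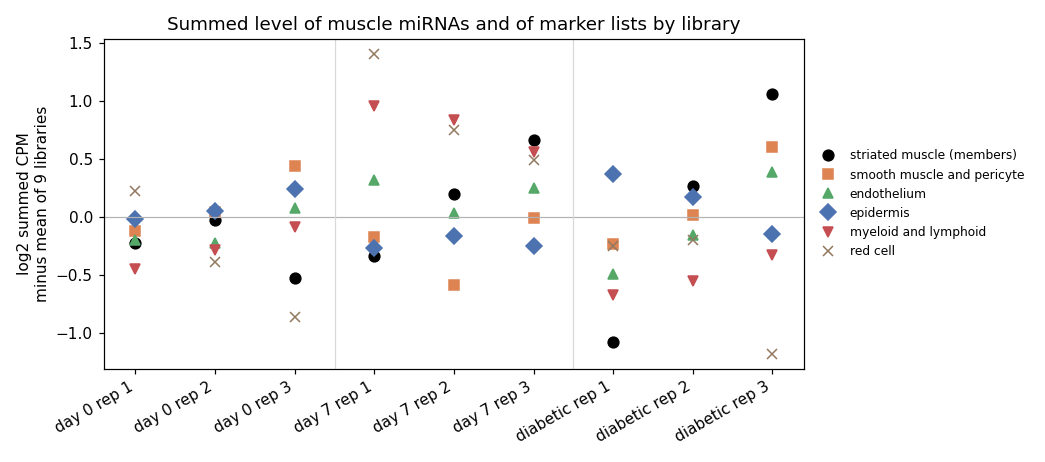
Summed CPM of the 6 muscle rows and of 5 marker lists in each library, as log2 minus the mean of the 9 libraries (vertical axis), with 1 symbol per list. The muscle rows lie lowest in diabetic replicate 1 (-1.07) and highest in diabetic replicate 3 (1.06), while the myeloid and lymphoid list is high in all day 7 libraries (0.56 to 0.96).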

How the data were processed

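Small RNA libraries of total RNA from 9 skin samples were ligated with adapters, size-selected and sequenced as single-end reads, per the labels' protocols. The authors deposited 1 table with a read count (not normalized) and a TPM for each row and library, per the file headers. The deposited TPM equals the count per 1000000 counts of the library, which was tested on the table, and takes no account of length. Bowtie, DESeq 3.0.3 and build mm9 are named, with no role, in the submitters' processing notes. How reads were trimmed, matched and assigned to strands is not given here. Columns of diabetic skin were matched through the letter T with the number of the replicate.

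Counts were tested with edgeR 4.0.16 (quasi-likelihood F test, TMM, filterByExpr with a minimum count of 10 and total of 15) in R 4.3.3, in 1 fit of all 9 libraries, with Benjamini-Hochberg adjustment over 447 rows. The SE was taken from the F statistic. Shares and log2 ratios were compared by exact permutation tests (SciPy 1.17.1). The edgeR fit was tested on simulated counts, and the exact tests on made-up values with known answers. Alternatives were DESeq2 1.42.0, limma 3.58.1 on log2(TPM + 1), other scalings and filters, 1 library left out, and a replicate block. A further alternative, chosen after seeing the data, left out all 3 libraries of 1 replicate number. Ranges and orders of the members were also compared in TPM after seeing the data. Same-numbered libraries deviated together from their group means in 9 of 9 pairs (r of 0.102 to 0.484, all over the criterion of 0.1). The numbers may therefore pair the samples. This rests on the data, as no label says so. The main edgeR fit and the permutation tests did not use the numbers. Only the replicate block and the sign-flip tests did. Replicates differed far beyond counting noise (chi-square 178 to 1497 per degree of freedom). All 7 members are described in each comparison. From each marker list the rule named the 3 most abundant rows, of which those that bear on the muscle rows are given, and it named the 5 rows nearest in pattern. The members and lists were chosen with earlier results of these data known. The reference is GRCm38 and not mm9, so its coordinates describe only the printed sequences.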

Additional observations from a re-analysis of the deposited data

How the results depend on the processing

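The 3 ratios that set day 7 apart had only leave-outs and the replicate block as alternatives. None of these could turn the sign of their differences at day 7. Their ranges are apart there, and the block leaves a mean difference unchanged. The kept sign is therefore no test of these ratios. Of 472 alternative values of member fold changes 402 kept sign and side of the threshold, 51 changed sign and 19 passed where the value as reported did not. None of the values that changed sign passed a test, and the cause was not tested. Without the low-count filter the SE in diabetic skin against day 7 was 0.21 for miR-133a-3p and 0.24 for miR-133b-3p. In the main fit these SEs were 0.41 and 0.47. Total-count scaling moves the median of all miRNAs to -0.46 at day 7 against day 0 and 0.61 in the diabetic group against day 7. In limma on log2(TPM + 1) these medians were -0.42 and 0.56.

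Day 7 against day 0: the sign changed for miR-1a-3p (-0.017 with total-count scaling, -0.080 in limma), miR-1b-5p (-0.017 and -0.079), miR-133a-5p (-0.41 with total-count and -0.070 with upper-quartile scaling, -0.0054 without the filter, -0.39 in limma) and miR-499-5p (0.054 in limma, 0.14 with the replicate block). miR-133a-3p passed at -0.63 without the filter and -1.11 in limma. miR-206-3p passed at 0.77 with totals without miR-21a-5p, 0.65 without the filter, 0.76 with the replicate block and 0.73 in the fit of both groups alone. Members called numbered 1 with totals without miR-21a-5p, in limma, with the block and in the 2-group fit, and 2 without the filter. All calls numbered 57, but 133 with total-count scaling (16 higher and 117 lower, against 36 and 21), 139 in limma and 37 with totals without miR-21a-5p. Upper-quartile scaling gave 26 higher and 34 lower. The share difference was 3.79 percentage points with miR-21a-5p out of the total, against -0.17.

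Diabetic against day 0: all calls numbered 0, but 5 in DESeq2, 10 without the filter, and 1 each with total-count or upper-quartile scaling, TMM without the muscle rows, a mean CPM of at least 10, miR-1b-5p left out, limma and the block.

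Diabetic against day 7: miR-1a-3p turned to -0.12 with totals without miR-21a-5p, -0.0011 at a mean CPM of at least 10 and -0.043 with the block, and miR-1b-5p to -0.12, -0.0017 and -0.044. miR-133a-5p turned to -0.047 with totals without miR-21a-5p, and miR-206-3p to 0.45 with total-count scaling and in limma. miR-133a-3p passed at 0.96 in DESeq2, 1.48 with total-count scaling, 1.04 without the filter and 1.48 in limma. miR-133b-3p passed at 1.55, 1.12 and 1.56 in the last 3. Members called numbered 1 in DESeq2 and 2 in those 3. All calls numbered 89, but 198 with total-count scaling (174 higher and 24 lower, against 35 and 54) and 194 in limma. The share difference was -0.68 percentage points with miR-21a-5p out of the total.

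With 1 library left out at a time, values ran as follows. At day 7 against day 0: -0.12 to 0.29 for miR-133a-5p, 0.53 to 0.85 for miR-206-3p, -1.004 to 2.15 for miR-499-5p, 0 to 1 members called, 19 to 68 calls in all and -1.55 to 1.06 percentage points for the share. In the diabetic group against day 0: -0.059 to 0.97 for miR-1a-3p and miR-1b-5p, -0.063 to 0.79 for miR-133a-3p, -0.15 to 0.56 for miR-133a-5p, -1.36 to 2.74 for miR-499-5p, 0 to 2 calls in all and 0.82 to 6.33 percentage points for the share (0.090 without all 3 libraries numbered 3). Its log2 ratios ran from -0.038 to 0.15 for miR-1a-3p to miR-133a-3p, -0.18 to 0.18 for miR-206-3p to miR-133b-3p and -0.028 to 0.46 for miR-206-3p to miR-1a-3p. In the diabetic group against day 7: -0.51 to 0.48 for miR-1a-3p and miR-1b-5p, 0.50 to 1.39 for miR-133a-3p, -0.21 to 0.46 for miR-133a-5p, 0.52 to 1.56 for miR-133b-3p, -0.43 to 0.16 for miR-206-3p, -0.86 to 1.04 for miR-499-5p, 0 to 2 members called, 49 to 101 calls in all and 0.99 to 6.50 percentage points for the share. Its log2 ratios ran from -0.33 to 0.15 for miR-206-3p to miR-1a-3p and -0.0061 to 0.15 for miR-133b-3p to miR-133a-3p.

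Leaving out all 3 libraries of 1 replicate number was chosen after seeing the data, and it leaves 2 samples a group. Without number 1, all calls were 18, 1 and 56 in the 3 comparisons in the order above. miR-206-3p turned to 0.015 in diabetic skin against day 7, and the share difference of day 7 against day 0 to 1.55 percentage points. The log2 ratio of miR-206-3p to miR-133b-3p turned to -0.13 in diabetic skin against day 0, and that of miR-206-3p to miR-1a-3p to -0.037 at day 7 and -0.21 in diabetic skin against day 0. Without number 2, all calls were 1 at day 7 against day 0 and 5 in diabetic skin against day 7. miR-133b-3p turned to 0.20 and the share difference to 0.22 at day 7 against day 0, and in diabetic skin against day 0 the log2 ratios of miR-1a-3p to miR-133a-3p and miR-206-3p to miR-133b-3p turned to -0.0097 and -0.038. Without number 3, all calls were 60, 0 and 86 in the 3 comparisons in that order. There miR-1a-3p, miR-1b-5p and miR-133a-5p turned to -0.0034, -0.0027 and -0.39 at day 7 against day 0. In diabetic skin against day 0, miR-1a-3p and miR-1b-5p turned to -0.20, miR-133a-3p to -0.19, miR-133a-5p to -0.38, miR-499-5p to -0.12 and the log2 ratio of miR-1a-3p to miR-133a-3p to -0.063. Against day 7, miR-1a-3p turned to -0.19, miR-1b-5p to -0.20 and the log2 ratio of miR-206-3p to miR-1a-3p to 0.068.

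With TPM in place of CPM, chosen after seeing the data, 1 of 6 muscle rows had ranges apart in diabetic skin against day 0, against 0, and at day 7 against day 0 it was 1 on both scales but not the same row.

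The main fit called 0 members in each comparison, so the block had no call to end. It added the call of miR-206-3p at day 7 against day 0. For shares and ratios the smallest p that 3 pairs allow is 0.25 (exact sign-flip test). miR-499-5p, at 1 to 66 counts a library, allows no firm statement, and it has no value at a mean CPM of at least 10, in 2 of the 2-group fits or without the libraries numbered 2. PCR reads without molecular identifiers are not independent molecules.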
